A study of Mus musculus with 2 samples.

Results

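The 10 genes described here encode proteins of epithelial cell-cell junctions, together with N-cadherin. They were Epcam, Cdh1 (E-cadherin), Cdh2 (N-cadherin), Cldn1, Cldn3, Cldn4, Cldn6, Cldn7, Ocln (occludin) and Tjp1 (ZO-1), taken by symbol from the 32285 genes of the reference, and each symbol had 1 row. They were counted in single cells of omental tumors from C57BL/6J mice, in 1 library per genotype. KPCA is a mouse line of fallopian tube epithelial cells that carries mutant Trp53 among other alterations, overexpresses Ccne1 and Akt2, and serves as a syngeneic model of high-grade serous ovarian cancer. Mice were grafted intraperitoneally with KPCA.FSTKO cells, in which Fst is knocked out, or with KPCA.FSTKO_hFSTL3 cells, a stable clone of that line that overexpresses human FSTL3 from a plasmid. Both groups therefore lacked Fst in the cancer cells, and no library from an Fst-intact line was analysed here. Each library pooled 4 tumors collected on day 10 after the graft from mice of 12 to 16 weeks, without treatment, and was made with a 10x Genomics 3′ kit. Because each genotype was 1 library, differences between genotypes and between libraries cannot be told apart, and no test was made.

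Adherens junctions hold neighboring epithelial cells together through E-cadherin, whereas N-cadherin is the cadherin of fibroblasts and other mesenchymal cells. Tight junctions seal the space between cells with claudins and occludin, which are tied to the actin cytoskeleton by scaffold proteins such as ZO-1. EpCAM is an adhesion protein of epithelial cells that binds claudin-7, and a switch from E-cadherin to N-cadherin is a classical sign of epithelial-mesenchymal transition.

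After the filters of the study's methods, 6777 of 7582 barcodes of KPCA.FSTKO and 4041 of 4244 of KPCA.FSTKO_hFSTL3 remained, with a median of 17253 and 15071 unique molecular identifiers (UMIs) per cell. The libraries shared 10 barcodes. Clusters made without the 10 genes and without the other listed junction genes gave 5 cancer-like clusters, which held 3746 KPCA.FSTKO cells but only 203 KPCA.FSTKO_hFSTL3 cells. In KPCA.FSTKO_hFSTL3, 87.0% of cells lay in clusters with most of the listed pancreatic acinar genes raised and were kept out of every class as mixed. The cancer-like name rested on keratins, mesothelin and other markers, whose 14 genes summed to 4562 CPM (counts scaled to a fixed total, as given in the next paragraph) in KPCA.FSTKO and 4153 CPM in KPCA.FSTKO_hFSTL3, where Sox17 was at 0. The mixed cells of KPCA.FSTKO_hFSTL3 also held these markers, at 3147 CPM. They carried 75.1% of the Cdh1, 69.2% of the Cdh2 and 91.5% of the Epcam UMIs of that library. The libraries were merged without integration, so the 203 cells are those that clustered with KPCA.FSTKO cells. They may not stand for all cancer cells of KPCA.FSTKO_hFSTL3. Within the cancer-like class the 23 acinar genes summed to 35.0 CPM for KPCA.FSTKO and 505 CPM for KPCA.FSTKO_hFSTL3. Over all deposited barcodes, and not this class alone, the median mitochondrial share was 3.71% and 10.7%. Of the cancer-like cells, 3422 of 3746 and 199 of 203 had a share under 10%, and keeping only these was among the alternatives. The part of acinar RNA and of mitochondrial share in any difference between the libraries was not tested.

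Cancer-like KPCA.FSTKO cells kept Cdh1, Cdh2 and Tjp1 transcripts, held Cldn3, Cldn6 and Cldn1 in a minority of cells, and carried most of their Epcam, Cldn4 and Cldn7 transcripts in very few cells. Levels are given as CPM, the UMIs of a gene over all cells of a class, scaled to 1000000 UMIs of that class, with an exact 95% Poisson interval. These intervals, and all others below, cover counting error only. The 3′ counts are not scaled for gene length or capture, so levels were compared within a gene across cells and not between genes.

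Cdh2, the mesenchymal cadherin, was found in 78.2% of the 3746 cancer-like KPCA.FSTKO cells, with 12151 UMIs and a level of 111 CPM (109 to 113). Fibroblast-like cells, which use N-cadherin by nature, held more, at 197 CPM (188 to 206) over 663 cells. Pericyte-like cells were at 104 CPM (81.9 to 131), an interval that takes in the cancer-like level. All other named classes of KPCA.FSTKO lay lower, between 13.1 CPM in macrophage-like and 42.2 CPM in endothelial-like cells. The order of fibroblast-like over cancer-like over macrophage-like cells held in KPCA.FSTKO_hFSTL3, with Cdh2 at 291, 146 and 6.64 CPM.

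Cdh1, the epithelial cadherin, was found in 41.2% of cancer-like KPCA.FSTKO cells, with 3991 UMIs and 36.4 CPM (35.3 to 37.6). Its level in macrophage-like cells was not far below, at 24.8 CPM (22.2 to 27.6), a ratio of cancer-like over macrophage-like cells of 1.47 (1.32 to 1.65). In KPCA.FSTKO_hFSTL3 the cancer-like class held Cdh1 at 30.3 CPM (26.8 to 34.1) and the macrophage-like class at 29.9 CPM (24.0 to 36.7), and the ratio of 1.01 (0.797 to 1.30) did not separate them. Fibroblast-like cells held 6.83 CPM and 1.19 CPM. E-cadherin transcripts thus did not set the cancer-like class apart from macrophage-like cells as they did from fibroblast-like cells.

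Tjp1, the scaffold under the tight junction, was the most widely found, in 90.04% of cancer-like KPCA.FSTKO cells, at 212 CPM (210 to 215). Endothelial-like cells, which also build tight junctions, were higher in both libraries, at 368 CPM (334 to 404) and 387 CPM (314 to 472). Pericyte-like cells followed the cancer-like cells with 167 CPM (138 to 201), fibroblast-like cells with 104 CPM (97.4 to 110), and macrophage-like cells were lowest with 28.7 CPM.

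Among the claudins, which form the paracellular seal, Cldn3 was found in 14.4% of cancer-like KPCA.FSTKO cells, at 11.8 CPM (11.2 to 12.5) from 1293 UMIs. Fibroblast-like cells held more Cldn3, 15.4 CPM (13.1 to 18.0), whereas macrophage-like cells held 1.91 CPM. Cldn6, a claudin known from embryonic epithelia and several carcinomas, was found in 11.7% of cancer-like cells at 6.395 CPM (5.93 to 6.89), against 0.770 CPM in fibroblast-like and 0.441 CPM in macrophage-like cells. Its ratio of cancer-like over macrophage-like cells, 14.5 (6.63 to 39.7), was the highest of the claudins, though the intervals of the others reached into it. Cldn1 was found in 7.15% of cancer-like cells at 3.41 CPM (3.07 to 3.78), below the 4.91 CPM (3.65 to 6.45) of fibroblast-like cells by a ratio of 0.695 (0.518 to 0.951). Neutrophil-like cells gave the highest Cldn1 level of a named class in KPCA.FSTKO, 29.2 CPM (15.1 to 50.9), from 12 UMIs in 150 cells.

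The remaining genes were rare. Cldn4 was found in 2.22% of cancer-like KPCA.FSTKO cells (1.76 CPM, 193 UMIs), occludin in 2.03% (0.940 CPM, 103 UMIs), Epcam in 1.68% (4.83 CPM, 529 UMIs) and Cldn7 in 0.801% (1.54 CPM, 169 UMIs). Epcam is widely used to sort ovarian carcinoma cells, and here 63 of 3746 cancer-like cells held a UMI of it.

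**Figure D1:**
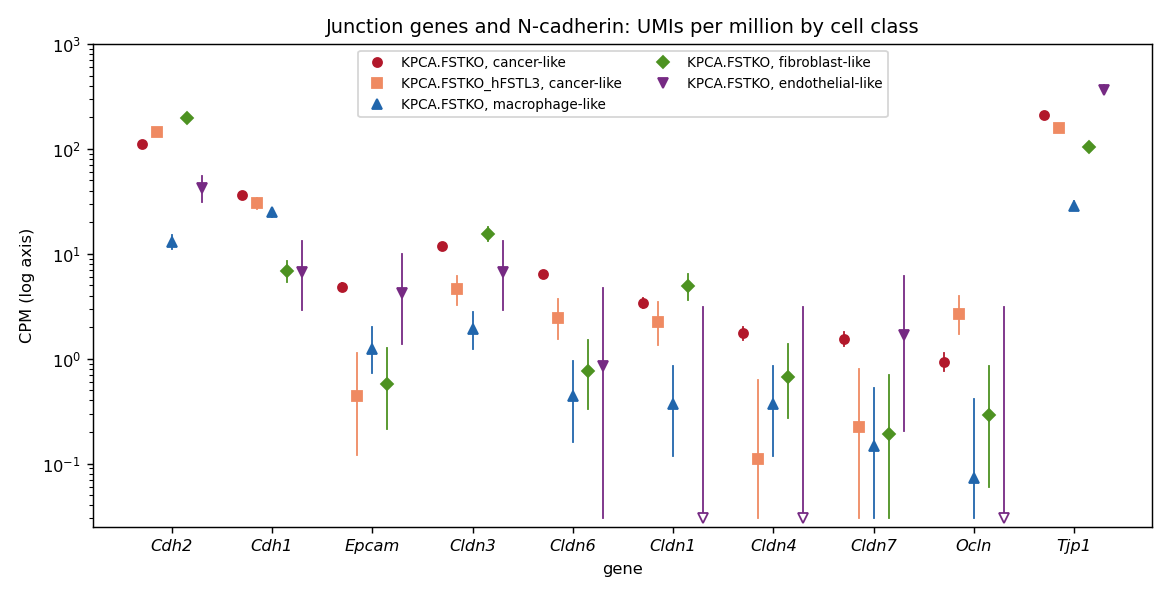
Level of each gene in CPM (log axis) in cancer-like cells of both libraries and in macrophage-like, fibroblast-like and endothelial-like cells of KPCA.FSTKO, with bars for the exact 95% Poisson interval cut at the foot of the axis and open symbols for 0 UMIs. Cdh2 was highest in fibroblast-like cells and Tjp1 in endothelial-like cells, while Cdh1 in macrophage-like cells (24.8 CPM) lay near its levels in cancer-like cells (36.4 and 30.3 CPM).

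Cancer-like cells were sequenced more deeply than the others, with a median of 27792.5 UMIs in KPCA.FSTKO against 12469 in macrophage-like and 13517 in fibroblast-like cells. Each cell was therefore also thinned to 5000 UMIs, which left 3395 cancer-like, 866 macrophage-like and 494 fibroblast-like cells of KPCA.FSTKO. At that depth 61.1% of cancer-like cells but 6.81% of macrophage-like cells had a Tjp1 UMI, the shares for Cdh2 were 39.3% and 3.46%, and those for Cldn3 4.15% and 0.346%. For Cdh1 the share was 13.9% (12.8 to 15.1) among cancer-like cells against 10.97% (8.97 to 13.2) among macrophage-like cells, and the intervals overlapped. Epcam was found in 0.913% (0.621 to 1.29) and 0.808% (0.326 to 1.66), from 31 and 7 cells, and these intervals overlapped too. The share of cells with an Epcam UMI thus did not set the cancer-like class apart from macrophage-like cells.

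Set against macrophage-like cells of KPCA.FSTKO, 9 of the 10 genes were at least 2 times higher in cancer-like cells, with Cdh1 as the exception, and 0 were at least 2 times lower. Among all 13564 genes with at least 100 UMIs, 30.1% passed in the higher and 15.4% in the lower direction, and the median log2 ratio was 2.99 for the 10 genes and 0.40 for all genes. Without 10 cells rich in Epcam, described below, the count fell from 9 to 6, and the ratio of Epcam from 3.86 (2.39 to 6.68) to 0.895 (0.536 to 1.59), while Cldn7 and Ocln had too few UMIs left. Against fibroblast-like cells, 7 of the 10 were higher and 0 lower, where 9.5% and 13.1% of 13452 genes passed, and the medians were 1.54 and 0.12. Cdh2, Cldn3 and Cldn1 were the 3 genes that did not pass there, with ratios of 0.563 (0.537 to 0.590) for Cdh2 and 0.766 (0.650 to 0.909) for Cldn3, beside the value of Cldn1 above. The cancer-like level of these 3 genes was below that of the fibroblast-like cells, N-cadherin included. The count of 7 includes the 10 cells rich in Epcam and was not made again without them. Without them Cldn7 kept 35 and Ocln 88 UMIs in cancer-like cells. With 2 and 3 UMIs in fibroblast-like cells, both genes would then miss the 100 UMIs asked for. The cancer-like level of Epcam fell from 4.83 to 1.12 CPM and that of Cldn4 from 1.76 to 0.989 CPM.

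The balance of Cdh1 and the other genes differed between these classes. In cancer-like KPCA.FSTKO cells there were 0.329 Cdh1 UMIs for each Cdh2 UMI, and in macrophage-like cells 1.89. In the larger macrophage-like cluster of 821 cells, Cdh1 was at 23.1 CPM (20.4 to 26.2) beside 4.12 CPM of Cdh2 and 8.78 CPM of Tjp1, or 5.62 Cdh1 UMIs for each of Cdh2. In the smaller cluster of 180 cells Cdh2 reached 49.7 CPM and Tjp1 110 CPM, with Cdh1 at 31.4 CPM.

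The 519 macrophage-like cells with at most 1 UMI of Krt7, Krt8, Krt18, Krt19 and Msln together held Cdh1 at 25.6 CPM (21.7 to 29.9), Cdh2 at 3.63 CPM and Tjp1 at 9.23 CPM. Without the 54 macrophage-like cells called doublets, Cdh1 was at 24.8 CPM and Cdh2 fell from 13.1 to 4.42 CPM. Tjp1 fell from 28.7 to 8.42 CPM and Cldn3 from 1.91 to 0.334 CPM, so the macrophage-like levels of these genes given above include called doublets. Of the 168 macrophage-like cells of KPCA.FSTKO_hFSTL3, 45 held a Cdh1 UMI. The part of free RNA and of doublets in these Cdh1 counts was not tested.

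Single cells of the cancer-like class often held both cadherins. In KPCA.FSTKO, 1283 of the 3746 cells (34.2%, 32.7 to 35.8) held UMIs of Cdh1 and Cdh2, 43.9% held Cdh2 only, 6.91% Cdh1 only and 14.9% neither. After thinning to 5000 UMIs, both were found in 5.18%, Cdh2 only in 34.1% and Cdh1 only in 8.75% of 3395 cells. In KPCA.FSTKO_hFSTL3, 101 of 203 cells (49.8%, 42.7 to 56.8) held both at the deposited depth of a median of 44956 UMIs, and 7.89% (4.49 to 12.7) of 190 cells did after thinning, against 5.18% (4.46 to 5.98) in KPCA.FSTKO. The intervals after thinning overlapped.

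The cadherins were found together about as often as their separate shares within each cluster gave. The cells with both, divided by the number expected if the genes were independent within each cluster, gave 1.05 (0.994 to 1.11) at the deposited depth and 0.939 (0.806 to 1.09) after thinning. At the deposited depth 83.2% of the 1542 cells with a Cdh1 UMI also held Cdh2, and after thinning 37.2% of 473 did. Other classes had another make-up. At the deposited depth, macrophage-like KPCA.FSTKO cells held Cdh1 only in 17.3%, Cdh2 only in 5.69% and both in 2.80%. Fibroblast-like cells held Cdh2 only in 57.8% and both in 5.13%. After thinning, both were found in 0.462% of 866 macrophage-like and 1.01% of 494 fibroblast-like cells, against 5.18% of cancer-like cells.

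**Figure D2:**
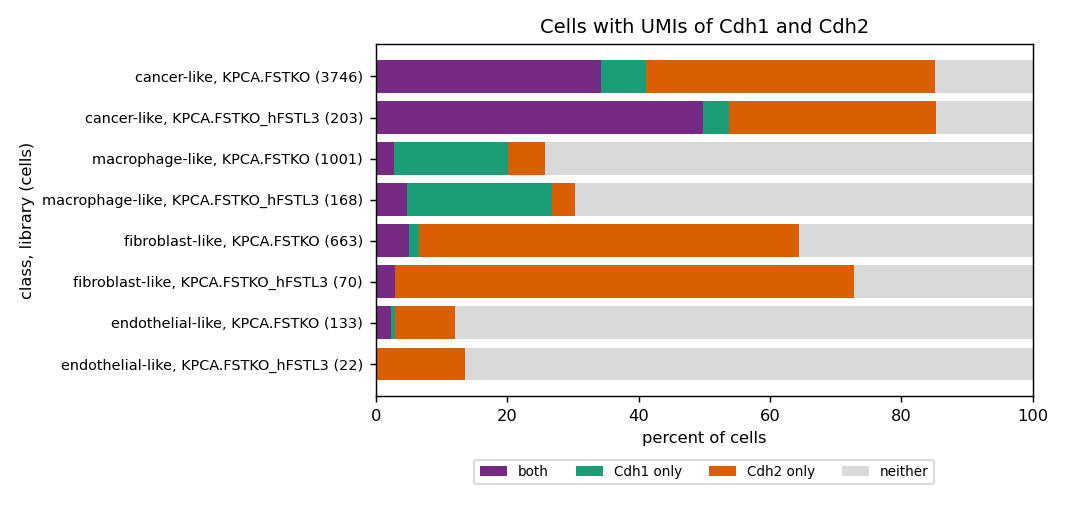
Percent of cells with UMIs of both cadherins, of Cdh1 only, of Cdh2 only and of neither, stacked for the cancer-like, macrophage-like, fibroblast-like and endothelial-like cells of each library at the deposited depth. Cells with both were most common in the cancer-like class (34.2% in KPCA.FSTKO as deposited), whereas Cdh2 only led in fibroblast-like cells (57.8%).

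The balance of the cadherins differed among the 5 cancer-like clusters of KPCA.FSTKO. It ran from 0.169 Cdh1 UMIs for each Cdh2 UMI (0.155 to 0.183) in the largest cluster of 948 cells, led by Lbp and Igfbp5, to 0.489 (0.459 to 0.520) in a cluster of 780 cells led by Krt13 and Prl2c2. The latter had the highest Cdh1 level of the deeply sequenced clusters, 51.3 CPM, and an Epcam level of 10.95 CPM, of which 6 cells held 277 of 314 UMIs, and which was 1.30 CPM (0.917 to 1.80) without them. The cluster led by cell cycle genes such as Cenpf lay between, at 0.341 (0.309 to 0.376). A cluster of 500 cells with a low median of 5947 UMIs, and a median mitochondrial share of 8.60% against 2.87% to 4.27% in the other 4, held the highest levels of Cdh1 (62.8 CPM), Cdh2 (267 CPM) and Tjp1 (390 CPM) but Cldn3 at only 2.94 CPM, where the other 4 clusters held 9.02 to 14.0 CPM of Cldn3.

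Epcam, Cldn4 and Cldn7 were concentrated in few cells. The 1% of cancer-like KPCA.FSTKO cells richest in each gene held 100% of Cldn7, 95.3% of Epcam, 76.7% of Cldn4 and 63.1% of Ocln UMIs. The same share was 32.4% for Cldn1, 30.0% for Cldn3, 25.7% for Cldn6, 13.2% for Cdh1, 6.70% for Cdh2 and 5.73% for Tjp1. For a rare gene such a share is high in any case, since fewer cells than that 1% may hold a UMI, as was so for the 30 cells with Cldn7.

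Only 10 cancer-like KPCA.FSTKO cells held at least 10 Epcam UMIs, a limit set after the values were seen. They were 0.267% of the class and held 407 of the 529 Epcam UMIs (76.9%), with 17 to 108 in a cell. Of the other cells with Epcam, 32 held 1 UMI, 5 held 2 and 4 held 3. The 10 cells lay in 4 of the 5 cancer-like clusters, 6 of them in the cluster led by Krt13. They had a median of 42995.5 UMIs, and 0 of them were called doublets.

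In these cells the other epithelial junction genes were found together and N-cadherin was at 0. Each of the 10 held UMIs of Cdh1 (5 to 34), Cldn3 (6 to 28), Cldn4 (1 to 33) and Cldn7 (6 to 22), and all of them held 0 of Cdh2 and 0 of Cldn1. The cell with most Epcam, at 108 UMIs, held 34 of Cdh1, 18 of Cldn3, 16 of Cldn4, 22 of Cldn7, 3 of Ocln and 54 of Tjp1. The cell with fewest, at 17, held 28 of Cdh1, 14 of Cldn3, 1 of Cldn4, 6 of Cldn7, 0 of Ocln and 20 of Tjp1. Ocln was found in 8 and Cldn6 in 9 of the 10. Outside the class, 2 cells of an unnamed KPCA.FSTKO cluster held 14 and 18 Epcam UMIs at total depths of 11417 and 12120 UMIs, and both were at 0 for Cldn3, Cldn4, Cldn6, Cldn7, Ocln and Tjp1, so high Epcam did not come with the other genes there.

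The 3683 cancer-like cells with no Epcam UMI served as the comparison. Cldn7, the partner of EpCAM, was at 315 CPM in the 10 cells and 0.130 CPM in cells without Epcam, a ratio of 2419 (1392 to 4544). Cldn4 was at 200.1 against 0.811 CPM, a ratio of 247 (181 to 337), and Ocln at 35.3 against 0.634 CPM, a ratio of 55.7 (29.6 to 98.5). Cldn3 was at 325 against 10.0 CPM, a ratio of 32.4 (26.9 to 38.7), and Cdh1 at 393 against 33.7 CPM, a ratio of 11.7 (9.92 to 13.6). The genes of the tight junction membrane were thus much higher in these cells, and E-cadherin with them. Cldn6 differed by a ratio of 9.03 (5.68 to 13.7), while Tjp1 differed little, at 301 against 213 CPM, a ratio of 1.42 (1.18 to 1.69). Cdh2 stood at 112 CPM in cells without Epcam and at 0 UMIs in the 10 cells, a ratio whose interval reached up to 0.0775. Setting the 0 to a floor of 3 counts over the group gives 15.9-fold lower, which is a set limit and not a measured fold. Cldn1 was too low in the comparison cells, at 3.47 CPM, for its 0 to be read as a difference.

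Other epithelial genes of the lists stood with them. Esrp1, a splicing factor of epithelial cells, was at 94.2 CPM in the 10 cells and 0.214 CPM in cells without Epcam, Rab25 at 115 and 0.149 CPM, St14 (the protease matriptase) at 56.5 and 0.0745 CPM, Elf3 at 217 and 6.97 CPM, and the polarity gene Crb3 at 129 and 3.07 CPM. Grhl2, an epithelial transcription factor, was at 47.1 and 0.578 CPM. Krt8 was at 3028 and 770 CPM, whereas the cancer marker Msln hardly differed, at 511 and 556 CPM, and Ptprc, which marks leukocytes, was at 0 UMIs. The cells were chosen for Epcam alone, so the values of the other genes are a description of 10 cells of 1 library.

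Cells with 3 to 9 Epcam UMIs lay between. The 16 such cells held 209 CPM of Cdh1, 106 CPM of Cldn3, 36.4 CPM of Cldn7 and 34.6 CPM (20.8 to 54.0) of Cdh2. The 37 cells with 1 or 2 Epcam UMIs were nearer to those without, with 0.767 CPM of Cldn7, 66.7 CPM of Cdh1 and 72.9 CPM (58.9 to 89.1) of Cdh2. Cdh2 was thus lower at each step of Epcam, and Cdh1 higher.

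**Figure D3:**
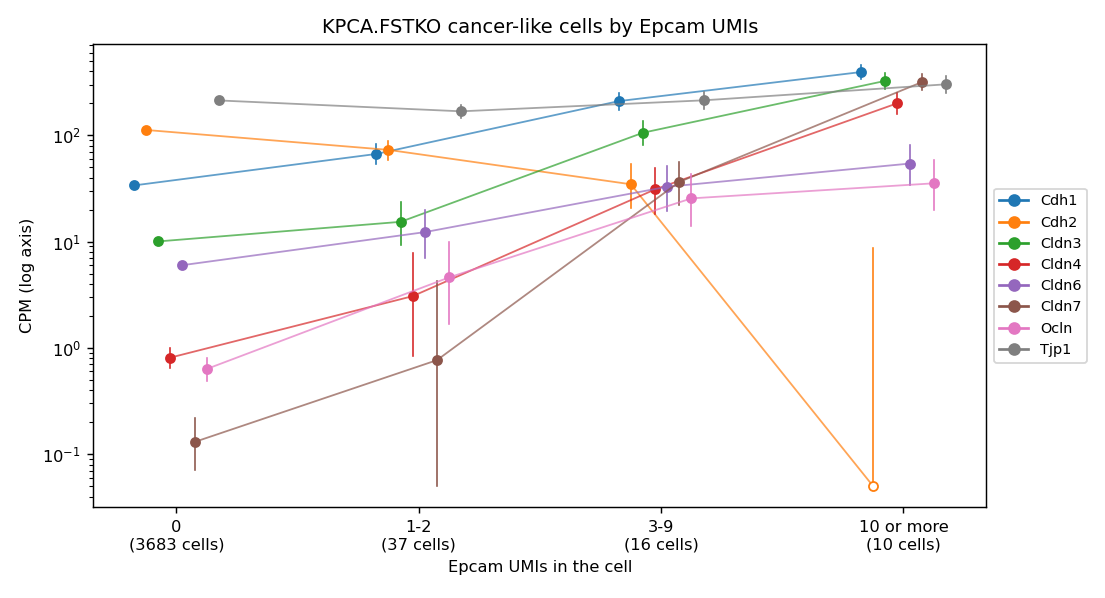
Level of 8 genes, without Epcam itself and Cldn1, in CPM (log axis) in cancer-like KPCA.FSTKO cells grouped by their Epcam UMIs, 0 (3683 cells), 1 to 2 (37), 3 to 9 (16) and 10 or more (10), with exact 95% Poisson intervals and open circles for 0 UMIs. Cdh1, Cldn3, Cldn4, Cldn7 and Ocln were higher with more Epcam, Tjp1 moved little (213 to 301 CPM between the end groups) and Cdh2 went from 112 CPM to 0 UMIs.

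The stretches of 250 bases just upstream of the annotated starts of Epcam, Cldn4 and Cldn7 are shown because these genes were found in the same cells. They are RefSeq sequences of GRCm38.p6, written 5′ to 3′ in the direction of the gene, and lie outside the transcript that starts at their end. Epcam starts at chr17:87635979 on the plus strand and its window is chr17:87635729-87635978. Cldn4 is on the minus strand with the window chr5:134946935-134947184, and the upstream start of Cldn7 has the window chr11:69964529-69964778 on the plus strand. Capitals mark the letters CACCTG and their reverse complement CAGGTG, an E-box that zinc finger repressors of epithelial genes are known to bind.
Epcam: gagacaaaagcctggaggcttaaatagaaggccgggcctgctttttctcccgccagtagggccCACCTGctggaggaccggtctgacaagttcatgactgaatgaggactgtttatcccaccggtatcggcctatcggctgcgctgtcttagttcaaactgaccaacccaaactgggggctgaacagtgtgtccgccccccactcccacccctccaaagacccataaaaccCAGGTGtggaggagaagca
Cldn4: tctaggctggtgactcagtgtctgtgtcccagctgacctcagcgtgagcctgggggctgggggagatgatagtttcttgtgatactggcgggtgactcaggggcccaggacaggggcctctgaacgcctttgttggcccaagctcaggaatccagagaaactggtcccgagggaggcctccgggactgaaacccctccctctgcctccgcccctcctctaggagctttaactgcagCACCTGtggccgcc
Cldn7: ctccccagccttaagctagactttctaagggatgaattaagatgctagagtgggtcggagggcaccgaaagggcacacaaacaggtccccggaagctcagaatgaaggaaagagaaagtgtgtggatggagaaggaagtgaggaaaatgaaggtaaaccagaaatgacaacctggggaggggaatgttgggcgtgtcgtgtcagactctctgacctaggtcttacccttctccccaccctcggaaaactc
The Epcam window held the letters at 19 to 14 and at 187 to 182 bases before the start, the Cldn4 window at 14 to 9, and the Cldn7 window shown held none. Of the 10 windows listed for 8 of the 10 genes, 5 windows of 5 genes held them, namely those of Cldn4, Cldn6, Epcam and a further start each of Cldn7 and Ocln. Cdh2 was left out of this count and Cdh1 had no window, so neither cadherin is among them. The same letters occur in 17.2% of all 32851 windows of this length, and in 2.06% at least 2 times. A match of letters is not a measured binding site, and nothing was measured at these windows.

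Over all cancer-like KPCA.FSTKO cells, the 10 cells rich in Epcam included, pairs of genes followed the same pattern. Epcam and Cldn7 shared 18 cells where 0.611 were expected within clusters, an observed over expected number of 29.5 (17.5 to 46.6), and 56.4 (28.2 to 101) after thinning. Of the 30 cells with Cldn7, 18 thus held Epcam. Cldn7 and Ocln gave 22.5 (13.1 to 36.0), Cldn4 and Cldn7 18.5 (10.3 to 30.4), Epcam and Ocln 13.7 (8.503 to 21.0) and Epcam and Cldn4 12.3 (7.53 to 19.0), all at the deposited depth. These 5 pairs were higher still after thinning, between 22.0 and 56.4. Thinning left 31 cells with an Epcam UMI and 17 with a Cldn7 UMI. It keeps a gene best in cells that hold many of its UMIs, so the rise was not read as support from further cells. The 5 pairs rest on few cells, 15 to 21 at the deposited depth, and the 10 cells above are among them.

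The more widely found genes paired more weakly. Cldn3 and Cldn6 shared 115 cells, 1.66 (1.37 to 1.99) times the expected number, and Cdh1 shared more cells than expected with Cldn6 (1.33, 1.18 to 1.495) and Cldn3 (1.23, 1.10 to 1.38). After thinning the value of Cdh1 with Cldn6 was 1.06 (0.581 to 1.78). N-cadherin was found less often than expected with Epcam (0.671, 0.462 to 0.942) and with Cldn7 (0.548, 0.292 to 0.937), from 33 and 13 cells, and after thinning these values were 0.646 (0.260 to 1.33) and 0.295 (0.0357 to 1.06), with intervals that take in 1. The 10 cells rich in Epcam, all with Cldn7 and with 0 of Cdh2, are among the 63 cells with Epcam and the 30 with Cldn7. The low values with N-cadherin thus rest in part on those 10 cells. Tjp1 paired with each of the other 9 genes at 1.03 to 1.10 times the expected number. Depth varied among the cells, and values near 1 were not read as pairing.

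**Figure D4:**
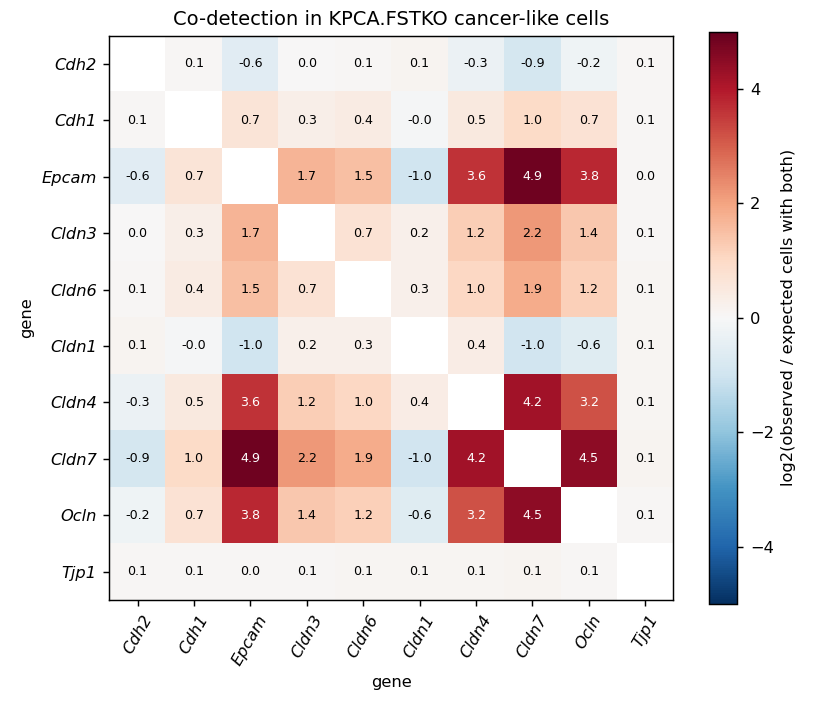
Observed over expected number of cancer-like KPCA.FSTKO cells with UMIs of both genes of a pair, as log2, at the deposited depth, where the expected number assumes independence within each cluster. Pairs among Epcam, Cldn4, Cldn7 and Ocln were highest, up to 29.5 for Epcam and Cldn7, while Cdh2 with Cldn7 (0.548) and Epcam (0.671) lay below 1. The cells rich in Epcam are included in all pairs.

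The cancer-like cells of KPCA.FSTKO held UMIs of a median of 2 of the 10 genes, at most of 8, and 4.67% of cells held none of them. After thinning to 5000 UMIs the median was 1 and the most was 7. In KPCA.FSTKO_hFSTL3 the median was 3 as deposited and 1 after thinning.

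Between the libraries, 5 of the 10 genes were at least 2 times lower in the cancer-like cells of KPCA.FSTKO_hFSTL3 and 1 was at least 2 times higher. Among all 13027 genes with at least 100 UMIs in both together, 7.11% passed in the lower and 3.26% in the higher direction. The median log2 ratio was −0.99 for the 10 genes and 0.01 for all genes. The KPCA.FSTKO_hFSTL3 values rest on 203 cells, so single cells weigh heavily in the rare genes.

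The epithelial genes of the rare cells were lowest. Epcam had 4 UMIs, all in 1 cell, and 0.446 CPM (0.121 to 1.14) against 4.83 CPM, a log2 ratio of −3.44 (−5.32 to −2.07). Cldn7 had 2 UMIs in 1 cell, a log2 ratio of −2.79 (−5.85 to −0.91), and Cldn4 had 1 UMI, a log2 ratio of −3.98 (−9.29 to −1.49). No cell of the 203 held 10 Epcam UMIs, which allows a share of up to 1.48% and so does not set this library apart from the 0.267% of KPCA.FSTKO. Without the 10 Epcam-rich cells of KPCA.FSTKO, the log2 ratio of Epcam was −1.33, with a ratio of 0.399 whose interval starts at 0.107 and takes in 1, that of Cldn7 was −0.52 and that of Cldn4 −3.15, and 4 genes were at least 2 times lower.

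Cldn3 and Cldn6 were lower too. Cldn3 was at 4.57 CPM (3.28 to 6.20) in KPCA.FSTKO_hFSTL3 and 11.8 CPM in KPCA.FSTKO, a log2 ratio of −1.37 (−1.85 to −0.92), and −1.21 without the 10 cells. Within clusters its ratio was 0.462, 0.126, 0.0604 and 0.509 in 4 clusters but 16.1 (7.26 to 36.4) in the cluster of low depth, where 10 cells gave 16 of its 41 UMIs. Cldn6 was at 2.45 CPM (1.54 to 3.71) against 6.395 CPM, a log2 ratio of −1.38 (−2.07 to −0.77). Cldn1 gave −0.61 (−1.34 to 0.03), an interval that takes in 0. Ocln was the 1 higher gene, at 2.68 CPM (1.71 to 3.98) from 24 UMIs in 14 cells against 0.940 CPM, a log2 ratio of 1.51 (0.80 to 2.16). The call of Ocln did not hold for cancer-like cells taken by a gate on markers, with a log2 ratio of 0.36 or, with no barcode filter, 0.04, nor with the mixed cells counted as cancer-like, with 0.87.

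The widely found genes differed by less than 2 times. Cdh2 was at 146 CPM (138 to 154) against 111 CPM, a log2 ratio of 0.39 (0.31 to 0.48), Cdh1 at 30.3 against 36.4 CPM, −0.26 (−0.45 to −0.09), and Tjp1 at 159 (151 to 168) against 212 CPM, −0.42 (−0.50 to −0.34). The Cdh1 to Cdh2 ratio was 0.208 (0.182 to 0.237) in KPCA.FSTKO_hFSTL3 and 0.329 (0.317 to 0.340) in KPCA.FSTKO. Within the 5 clusters the ratio of Cdh2 between libraries was 1.39, 1.01, 1.54, 1.64 and 1.04, that of Tjp1 was 0.940, 0.747, 0.727, 0.629 and 0.781, and that of Cdh1 was 0.924, 0.795, 0.771, 0.688 and 1.46. The ratio of Tjp1 was below 1 in each cluster, though in the first its interval (0.848 to 1.04) took in 1, while Cdh2 was higher in 3 clusters and about level in 2. These values depended on the cells called cancer-like. With the mixed cells counted as such, the log2 ratio of Cdh2 turned to −0.36, that of Tjp1 was −1.58, that of Cdh1 −0.73 and that of Cldn1 −1.66, and with a gate on markers that of Cdh1 was −1.04.

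**Figure D5:**
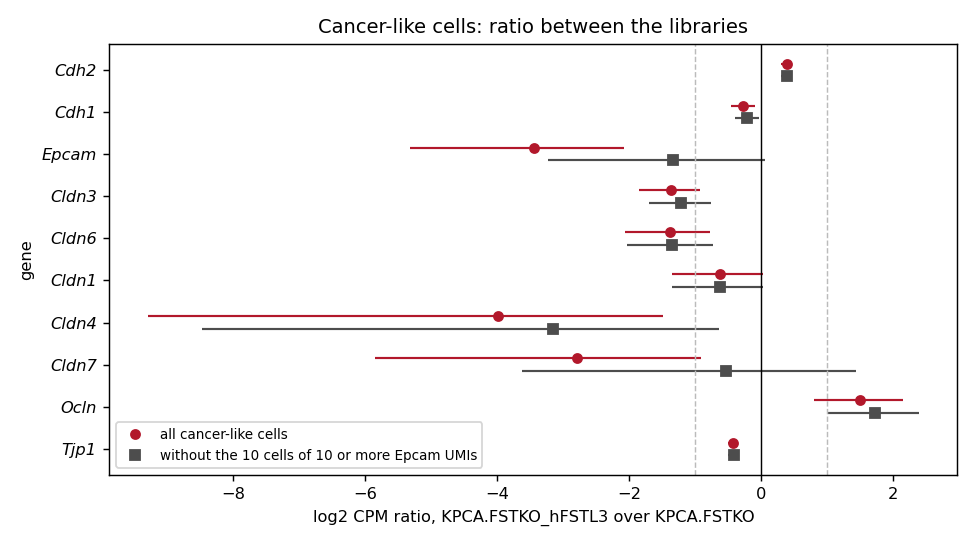
Log2 ratio of the level in cancer-like cells of KPCA.FSTKO_hFSTL3 over KPCA.FSTKO for each gene, with 95% conditional binomial intervals for counting error, over all cells (red) and without the 10 cells with at least 10 Epcam UMIs (grey), and dashed lines at a ratio of 2 either way. Without those cells Epcam moved from −3.44 to −1.33 and Cldn7 from −2.79 to −0.52, while Cdh1, Cdh2 and Tjp1 stayed within the dashed lines.

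Other junction genes were taken from lists of cadherins and catenins, other claudins, tight junction scaffolds, desmosome genes and genes of the epithelial state, 66 in all, 64 of them in the reference. Of the 33 with at least 100 UMIs between the libraries, 5 were at least 2 times higher in cancer-like cells of KPCA.FSTKO_hFSTL3 and 6 lower, beside the 3.26% and 7.11% of all genes, with a median log2 ratio of −0.12. Higher were the cadherins Cdh6 (456 against 192 CPM) and Cdh11 (2.23 against 0.958 CPM), and the desmosome genes Dsg2 (3.12 against 0.776 CPM), Pkp1 (5.24 against 1.45 CPM) and Perp (13.6 against 6.58 CPM). Lower were Cldn2, a claudin that forms cation pores (6.91 against 34.0 CPM), the adhesion gene Jam2 (8.81 against 28.5 CPM), the desmosome genes Dsp (2.23 against 6.17 CPM) and Ppl (10.3 against 25.4 CPM), and the epithelial regulators Elf3 (3.79 against 8.48 CPM) and Esrp2 (1 UMI against 129). Desmosome genes thus lay on both sides.

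Against macrophage-like cells of KPCA.FSTKO, 24 of 33 listed genes were higher in cancer-like cells and 2 lower, beside 30.1% and 15.4% of all genes, with a median log2 ratio of 2.22. Among the 24, Cdh13 was at 422 against 52.0 CPM, the polarity scaffolds Magi1 at 260 against 33.3 CPM and Pard3 at 112 against 14.6 CPM, and Cldn2 at 34.0 against 3.01 CPM. The 2 lower genes were epithelial by repute, Lsr, of tricellular junctions, at 0.456 against 20.3 CPM, and Spint1, a protease inhibitor, at 0.958 against 32.4 CPM. Like Cdh1, they were not confined to the cancer-like class. Against fibroblast-like cells, 11 of 37 listed genes were higher and 7 lower, beside 9.5% and 13.1% of all genes, with a median log2 ratio of 0.49. The 7 were Cdh11 (0.958 against 358 CPM), Cldn10 (0.328 against 77.6 CPM), Cdh3 (0.0912 against 18.1 CPM), Jam3 (0.210 against 16.4 CPM), Nectin1 (0.338 against 31.7 CPM), Nectin2 (20.2 against 72.7 CPM) and Lsr (against 7.60 CPM). Cancer-like cells with N-cadherin at 111 CPM thus held almost no Cdh11, the other common cadherin of fibroblasts.

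For each of the 10 genes, the 3 genes with the most similar log2(CPM + 1) pattern over 27 sums of a cluster in a library were found among 12083 genes. Only genes with at least 500 UMIs in all were among these. Cdh2 was most like Bace1 (Pearson's r = 0.97), Egfr (0.96) and Parva (0.95), and Tjp1 was most like Ptprk (0.95), Cobll1 (0.93) and Morc4 (0.92). Cdh1 was most like Gpr137b (0.88), Arhgap22 (0.87) and Pla2g7 (0.85), and Cldn3 like Clu (0.82) and Tst (0.76). The highest values for Cldn7 were with Epcam (0.83) and Mcpt1 (0.74). Cldn7 itself, with 223 UMIs, was below that limit and so could not be named for Epcam. Of the genes past the limit, Epcam was most like Cdh17 (0.67), Mcpt2 (0.59) and Mcpt1 (0.59), all below its value with Cldn7. The mast cell protease genes Mcpt1 and Mcpt2 were among the top genes of an unnamed cluster. That cluster, described at the end, also held Epcam and Cldn7, and its part in these values was not tested. Ocln was like Rbpms2 (0.84) and Col4a3 (0.83). The highest values were 0.81 with Ivl for Cldn4, 0.80 with Pax9 for Cldn6 and 0.78 with Pik3ip1 for Cldn1. The sums share libraries and differ in depth, so these values only describe likeness.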

How the data were processed

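Single-cell UMI counts per gene and barcode were deposited as 1 matrix per library. The authors aligned reads to mm10 with Cell Ranger, version 3.1.0 in the submitters' processing notes and 7.2.0 in the matrix header, and these counts were used as deposited. Barcodes with over 200 and under 8000 genes and under 20% mitochondrial UMIs were kept. Cells were clustered with Seurat 5.3.0 on 1982 variable genes, 10 principal components and resolution 0.8, without the 10 genes and the listed junction genes. A marker counted as raised when over 1.5 times higher and found in at least 25% of cells. A cluster was named where at least 3 and at least 50% of a class's markers were raised, and the rest in a second pass against named clusters by at least 3. Clusters with at least 50% of acinar genes raised, or at least 2 among their top 10 genes, were left as mixed. Clusters with more top genes of another class, or of low depth with no marker among them, such as 738 KPCA.FSTKO cells at a median of 1139 UMIs, stayed unnamed. The naming rule, the acinar list and the Epcam groups were chosen after clusters and values were seen, and the genes and lists with earlier results of these data known.

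Scrublet in scanpy 1.11.5 called 90 of 6777 and 1 of 4041 cells doublets, so it marked almost none in KPCA.FSTKO_hFSTL3, and doublets were kept. Counts summed over the 3746 and 203 cancer-like cells were compared by CPM ratios with conditional binomial intervals, shares with Clopper-Pearson intervals, and pairs with exact Poisson intervals, all at 95%. The size rule asked for at least 100 UMIs in both classes together and a ratio of at least 2. Named genes were the 10 genes, listed junction genes past the size rule, and the 3 genes most like each, of which some are not reported here. Other epithelial genes set beside Epcam were named whatever their UMIs, after their values were seen. The scripts were tested on simulated data. Alternatives were another clustering resolution, a marker gate, other filters and depths, TMM scaling (edgeR 4.0.16) and classes with or without doubtful clusters.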

Additional observations from a re-analysis of the deposited data

How the results depend on the processing

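No paired analysis was possible because each genotype has 1 library, and for the same reason no replicate could be left out. Of the values that answer a comparison, 62 under alternatives stayed within the counting interval or 1.5 times the count, and 13 moved. Cells were classed in other ways for the comparison of the libraries. The number of genes at least 2 times higher in KPCA.FSTKO_hFSTL3 was 1 as reported and 0 with a gate on markers, with that gate and no barcode filter, and with the mixed clusters as cancer-like. The higher gene was Ocln. The number lower was 5 as reported, 3 with the gate and no filter, 4 with the gate and 7 with the mixed clusters as cancer-like, where Tjp1 and Cldn1 joined. The share of cells with both cadherins after thinning, 5.18%, followed depth by construction, with 0.565% at 1000 UMIs, 13.6% at 10000 and 34.2% as deposited, and it was 6.89% with the gate and no filter. Observed over expected Cdh1 and Cdh2 was 1.18 with the gate and no filter and 1.19 at 1000 UMIs. For Epcam and Cldn7 it was 15.3 with the gate and no filter, 12.9 with the gate, and 23.3, from 1 cell, without the 10 cells rich in Epcam, and the cause was not tested. Of the values of single genes or pairs, 249 stayed, 99 moved and 2 that had passed the size rule or whose interval lay off 1 reversed. Those 2 were the log2 ratio of Epcam over macrophage-like cells, −0.16 without the 10 cells, and the observed over expected Cldn4 and Cldn7, 0 at 1000 UMIs. Among values that had not passed, the log2 ratio of Cdh2 between the libraries changed sign, from 0.39 to −0.36 with the mixed clusters as cancer-like. The cause was not tested. TMM scaling shifted every log2 ratio between the libraries by −0.10 and every one over macrophage-like cells by −0.15. The alternatives without the 10 cells, without the cluster of low depth and at the deposited depth were chosen after seeing the data. Depth limits Epcam, Cldn4 and Cldn7 most, at 4, 1 and 2 UMIs in KPCA.FSTKO_hFSTL3.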

Other observations

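Epcam was also found in cells without a class name. An unnamed cluster of 92 KPCA.FSTKO cells, led by immunoglobulin and mast cell protease genes such as Igkc and Mcpt2, held Epcam at 44.0 CPM (30.7 to 61.2), Cldn1 at 41.5 CPM and Cldn7 at 12.6 CPM, with Cldn3, Cldn4, Cldn6 and Ocln at 0 UMIs. Of the 3516 mixed cells of KPCA.FSTKO_hFSTL3, 69 held an Epcam UMI (1.96%), 25.1% held Cdh1 and 56.4% held Cdh2.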
